A study of Homo sapiens with 60 samples.

Results

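The comparison set 3 libraries of SW1783 cells given the ethanol extract of Cimicifugae Rhizoma at 100 µg/mL, the medium dose, against 3 libraries given it at 20 µg/mL, the low dose. They are 6 of the 60 libraries of the series and were chosen by their labels, not by any measured value. SW1783 is an established human astrocytoma cell line, and Cimicifugae Rhizoma is the dried rhizome of black cohosh relatives used in East Asian herbal medicine. All groups described here had 24 h of exposure, and gene expression was measured by directional mRNA sequencing. The other groups used are the high dose of the same extract, 500 µg/mL, the ethanol extract of Citri Unshius Pericarpium, a mandarin peel, at the same 3 doses, and cells given the DMSO vehicle alone, with 3 libraries in each. Both extracts carry the same set number, 12, in the sample names and the vehicle carries another, so set and treatment cannot be told apart in any comparison with the vehicle. The vehicle is therefore given as a level, with no test. All cells belong to 1 cell line, and nothing in the labels says that the 3 libraries of a group came from separate cultures, so the p-values measure the spread between these libraries, which may be technical.

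A few kinds of gene carry most of what follows. The aryl hydrocarbon receptor, AhR, is a transcription factor that binds flat aromatic molecules, including many from plants, pairs with ARNT and switches on genes of xenobiotic metabolism through a short DNA element whose core reads GCGTG. NRF2 is the transcription factor that answers electrophiles and oxidants. Its target HMOX1, haem oxygenase, breaks haem down to biliverdin, iron and carbon monoxide and also responds to haem itself. YAP and TAZ are coactivators that follow cell tension and shape and act through TEAD factors, whose usual site holds the letters GGAATG. CCN1, CCN2 and ANKRD1 are their textbook targets. Unlike AhR and NRF2, YAP and TAZ have no list among the 37 gene lists used below, so their targets were not examined as a set.

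Promoter sequences of 3 AhR genes and of 3 genes that were lower at the medium dose are shown because they hold these elements. They were chosen after the matches and the values were seen, and CYP1A1 and CCN2 did not pass the test. Each is the 250 bases before the first start site listed for the gene by RefSeq (GRCh38.p14), written 5′ to 3′ on the gene's own strand. Capitals mark GCGTG on either strand (CACGC is the same element on the other strand) in the first 3, and GGAATG in the last 3.
AHRR, chr5:321464-321713, plus strand: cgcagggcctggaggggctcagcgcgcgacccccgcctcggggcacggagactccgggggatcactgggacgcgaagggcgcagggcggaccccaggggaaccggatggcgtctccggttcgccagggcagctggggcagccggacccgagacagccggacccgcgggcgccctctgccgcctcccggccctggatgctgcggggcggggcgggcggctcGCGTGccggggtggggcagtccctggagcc
TIPARP, chr3:156674340-156674589, plus strand: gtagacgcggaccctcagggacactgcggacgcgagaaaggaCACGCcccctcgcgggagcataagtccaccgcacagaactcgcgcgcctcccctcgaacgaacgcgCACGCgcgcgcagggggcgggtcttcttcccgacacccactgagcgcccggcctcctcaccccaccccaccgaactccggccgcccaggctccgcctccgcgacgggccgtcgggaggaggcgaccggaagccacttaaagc
CYP1A1, chr15:74725529-74725778, minus strand: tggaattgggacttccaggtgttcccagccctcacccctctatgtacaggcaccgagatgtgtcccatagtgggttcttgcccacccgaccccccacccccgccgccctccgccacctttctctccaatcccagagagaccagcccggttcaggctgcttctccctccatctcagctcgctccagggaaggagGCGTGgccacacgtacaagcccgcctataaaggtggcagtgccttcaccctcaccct
ANKRD1, chr10:90921088-90921337, minus strand: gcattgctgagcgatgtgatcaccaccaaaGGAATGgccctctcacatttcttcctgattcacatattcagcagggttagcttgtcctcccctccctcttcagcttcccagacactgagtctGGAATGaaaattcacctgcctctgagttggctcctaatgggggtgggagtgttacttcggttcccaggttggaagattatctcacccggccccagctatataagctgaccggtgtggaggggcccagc
DKK1, chr10:52314031-52314280, plus strand: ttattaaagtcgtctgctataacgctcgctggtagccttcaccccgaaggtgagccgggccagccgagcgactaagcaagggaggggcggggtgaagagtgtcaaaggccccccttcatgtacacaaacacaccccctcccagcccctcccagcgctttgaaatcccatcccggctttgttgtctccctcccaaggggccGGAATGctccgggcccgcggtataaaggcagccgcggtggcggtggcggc
CCN2, chr6:131951373-131951622, minus strand: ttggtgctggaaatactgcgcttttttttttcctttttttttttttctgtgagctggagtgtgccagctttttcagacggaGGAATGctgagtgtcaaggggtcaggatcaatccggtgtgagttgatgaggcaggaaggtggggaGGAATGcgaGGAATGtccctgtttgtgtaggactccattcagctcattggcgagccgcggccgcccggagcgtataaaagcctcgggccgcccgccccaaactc

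The AHRR sequence holds 1 GCGTG, 30 bases before the start. TIPARP holds 2, at 208 and 142 bases, and CYP1A1 holds 1, at 57 bases. ANKRD1 holds GGAATG 2 times, at 220 and 128 bases before the start, DKK1 1 time at 50 bases, and CCN2 3 times, at 169, 104 and 95 bases. These are matches of letters and were not measured as bound sites. Searched on both strands over 16860 start sites of the tested genes, GCGTG was present at 42.5% and GGAATG at 9.92%. Of the 28 genes that passed the test described below, 19 had a listed start. Among the genes that rose, 8 of which had one, GCGTG stood at 8 of 15 starts (53.3%) and GGAATG at 0 of 15. Among the genes that fell, 11 of which had one, GCGTG stood at 9 of 24 starts (37.5%) and GGAATG at 6 of 24 (25%), in ANKRD1, DKK1, CNN3, DDAH1 and PDE1C. The longer form TNGCGTG, which contains GCGTG, stood at 5.65% of all starts, at 3 of 15 (20%) of genes that rose and at 3 of 24 (12.5%) of genes that fell. The NRF2 element TGACNNNGC stood at 11.7% of all starts, at 1 of 15 (6.67%) and at 1 of 24 (4.17%). HMOX1, CYP1B1 and CCN1 have no entry in the table used.

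The 6 libraries held between 20942625 and 30653459 counts, with 23358 to 24198 genes detected in each, and levels are given in CPM, a gene's counts scaled to a common library total after correction for library composition. The mitochondrial share of counts was 5.18% in low-dose replicate 1 and between 6.27% and 6.96% in the other 5. No 2 of the 6 were as alike as copies of 1 library. The astrocyte label was only partly met by the markers: VIM, CD44, GJA1, SOX9, SLC1A3, NES and DIO2 were above 1 CPM, while GFAP, S100B, SLC1A2 and ALDH1L1 were below it and AQP4 had no count. All 9 fibroblast and pericyte markers were above 1 CPM. The astrocyte markers together made 6920 to 7520 CPM at the low dose and 6950 to 7310 at the medium dose, and the fibroblast and pericyte markers 6740 to 7470 and 6800 to 7200. Neuron markers made 195 to 201 CPM and 201 to 204, endothelial markers 27.4 to 29.1 and 26.2 to 27.3, oligodendrocyte markers 6.25 to 6.93 and 6 to 7.18 with OLIG1, MOG and SOX10 at 0, and microglia and leukocyte markers 180 to 226 and 204 to 237 with AIF1, TYROBP and CD3E at 0. Epithelial markers were lower at the medium dose, 161 to 174 against 193 to 208 CPM, and KRT18 makes up most of that sum. In bulk RNA, fewer cells of a type and less RNA per cell cannot be told apart.

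Going from 20 to 100 µg/mL raised HMOX1 about 2-fold, raised CYP1B1, AHRR and TIPARP of the AhR response by 1.19 to 1.35-fold, and lowered a group of genes led by ANKRD1, CCN1, PTX3 and KRT18 by 17.7% to 29.9%. Of 16626 genes tested, 28 passed an adjusted p of 0.05, which is 0.168% (edgeR quasi-likelihood test, Benjamini-Hochberg adjustment over all genes). Of these, 14 rose (0.0842%) and 14 fell (0.0842%). In each of the 28, every medium-dose library lay beyond every low-dose library, a separation that 2255 genes (13.6%) showed in all, 6.6% upward and 6.96% downward. The changes were small apart from HMOX1, and the median change of all genes was 0. The replicate numbers of the 2 doses were taken to pair the libraries. With the number as a block over the 21 libraries of the fit, 143 genes passed (0.86%), 57 higher and 86 lower. All 28 were among them, and 115 passed only with the block. In this fit the vehicle libraries, of another set, share the block numbers of set 12. With the block over the 18 libraries of set 12 the count was 95, and over the 6 libraries it was 79. Results given with the block are those of the 21-library fit. The count moved with single libraries: it was 128 without medium-dose replicate 1, 22 without low-dose replicate 3, 17 without low-dose replicate 2, 16 without medium-dose replicate 3, 11 without low-dose replicate 1 and 8 without medium-dose replicate 2. HMOX1, NDRG1, CYP1B1, ARHGAP44, KLF9, MEST and KRT18 passed whichever 1 of the 6 was left out, and the other 21 each missed the threshold without at least 1 of them.

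**Figure D1:**
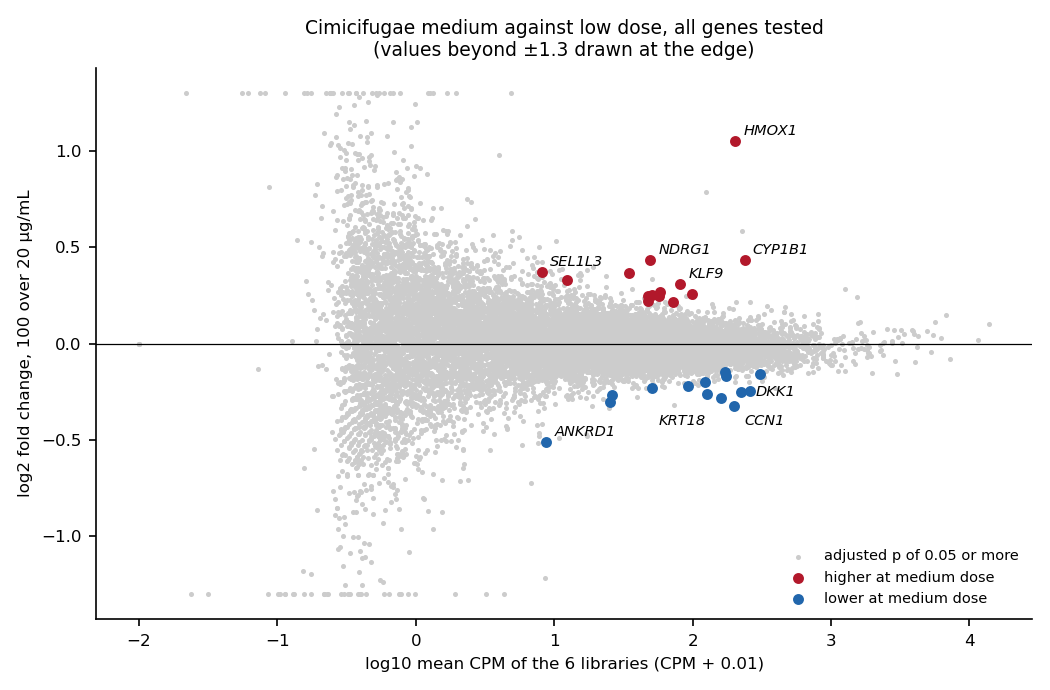
Each point is 1 of the 16626 genes tested: the x axis is the log10 mean level over the 6 libraries and the y axis the log2 fold change of the medium over the low dose, with values beyond ±1.3 drawn at the edge. The 14 red points rose and the 14 blue points fell at an adjusted p of 0.05. HMOX1 stands alone at 1.05, the other called genes lie between 0.15 and 0.51 from 0, and weakly expressed genes scatter widely without passing.

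HMOX1 (22:35380361-35394214, plus strand, GRCh38) had the largest change. Its level was 127, 127 and 142 CPM in the low-dose libraries and 273, 253 and 293 CPM in the medium-dose libraries. Both groups were tight and lay far apart. The log2 fold change was 1.05 ± 0.05 (SE), a 2.07-fold rise, with an adjusted p of 8.37e-12. At the high dose it was at 493 CPM ± 19.9 (SD, n = 3), a further log2 change of 0.85 ± 0.05 from the medium dose, and the vehicle libraries stood at 59.0 CPM ± 1.71 (SD, n = 3). HMOX1 thus rose at both dose steps. It was also the only gene of the NRF2 list to pass, 1 of 20, and the list's median log2 change was 0.05.

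No other gene of the NRF2 list passed between these doses without the block. NQO1, a quinone reductase that AhR also drives, was at 179 CPM ± 3.29 (SD, n = 3) at the low dose and 193 ± 10.3 (n = 3) at the medium dose, a log2 change of 0.11 ± 0.04 with an edgeR adjusted p of 0.31. SLC7A11, the cystine importer, had a log2 change of 0.20 ± 0.05 and did not pass, at an edgeR adjusted p of 0.11. With the replicate block it did (0.20 ± 0.04, adjusted p 0.026). FTH1, the ferritin heavy chain that stores iron, was at 1101, 1539 and 1569 CPM at the low dose and at 1576, 1700 and 1702 at the medium dose. The low-dose library at 1101 is the one with the low mitochondrial share, and whether the 2 are connected was not tested. FTH1 passed only with the block (0.25 ± 0.06, adjusted p 0.035), and its counts are uncertain because many processed copies of the gene share its sequence. GCLM and TXNRD1, of glutathione synthesis and thioredoxin recycling, had log2 changes of 0.06 ± 0.07 and 0.02 ± 0.04. From the medium to the high dose, with the medium libraries shared by both comparisons, 14 of the 20 rose and none fell, beside 1.62% and 1.77% of all genes. NQO1 rose by 0.57 ± 0.04 and TXNRD1 by 0.34 ± 0.04 there on the log2 scale.

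The AhR list was the one list with several members past the test. It holds 8 genes, of which 6 had enough counts to test. CYP1B1, AHRR and TIPARP rose, none fell, and the median log2 change of the 6 was 0.35 beside 0 over all genes. In the fit of only the 6 libraries CYP1B1 alone passed, with AHRR and TIPARP at an edgeR adjusted p of 0.246 each, and with 57 libraries none did. AHRR also missed the threshold without low-dose replicate 1, medium-dose replicate 2 or medium-dose replicate 3 (adjusted p 0.069 to 0.090, edgeR), and TIPARP without any 1 library other than medium-dose replicate 1 (0.059 to 0.13, edgeR). All 6 tested members stayed above 0 in each of these fits. CYP1B1 (2:38066973-38109902, minus strand), a cytochrome P450 that oxidises steroids and aromatic hydrocarbons, was at 208, 194 and 203 CPM at the low dose and 277, 266 and 274 at the medium dose. Every medium-dose library was above every low-dose one by more than 50 CPM. Its log2 fold change was 0.43 ± 0.03, a 1.35-fold rise with an adjusted p of 2.68e-08. The high dose took it to 332 CPM ± 11.2 (SD, n = 3), and the vehicle level was 166 ± 1.18 (n = 3).

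AHRR (5:304176-438291, plus strand) encodes the repressor that competes with AhR for ARNT and is itself an AhR target. It was at 51.9, 54.4 and 52.4 CPM at the low dose, close to the vehicle level of 50.5 ± 0.356 (SD, n = 3), and at 60.1, 64.9 and 65.9 CPM at the medium dose. The log2 fold change was 0.27 ± 0.05 (adjusted p 0.010). AHRR overlaps PDCD6 on the same strand, whose counts were 149% of its own, but PDCD6 had a log2 change of 0.03 ± 0.04. TIPARP (3:156673235-156706770, plus strand) encodes an enzyme that attaches ADP-ribose to AhR and restrains it. Its 3 low-dose libraries read 44.7, 42.9 and 42.5 CPM, again at the vehicle level of 42.6 ± 2.29 (SD, n = 3), and its 3 medium-dose libraries 52.7, 50.3 and 51.4 CPM. TIPARP rose by 0.25 ± 0.05 on the log2 scale (adjusted p 0.027). In both feedback genes the low-dose libraries lay near the level of the vehicle, which belongs to another set, and the medium-dose libraries lay above it.

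CYP1A1, the classical AhR target, was barely expressed. It read 1.13, 0.987 and 0.901 CPM at the low dose and 1.87, 1.14 and 1.64 CPM at the medium dose. The groups did not overlap, but medium-dose replicate 2 was close to the low-dose libraries, and the log2 change of 0.64 ± 0.29 did not pass (adjusted p 0.44). ALDH3A1, an aldehyde dehydrogenase, had a log2 change of 0.42 ± 0.24 at a level near 1 CPM and did not pass either (adjusted p 0.56). CYP1A2 had no count in the 6 libraries, and UGT1A6 was under the count filter. At the high dose CYP1A1 was at 2.96 CPM ± 0.751 (SD, n = 3) and TIPARP at 68.6 ± 4.25 (n = 3). The step from medium to high was 0.91 ± 0.25 for CYP1A1 (adjusted p 0.047), 0.41 ± 0.05 for TIPARP (adjusted p 6.99e-06) and 0.11 ± 0.04 for AHRR (adjusted p 0.21).

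**Figure D2:**
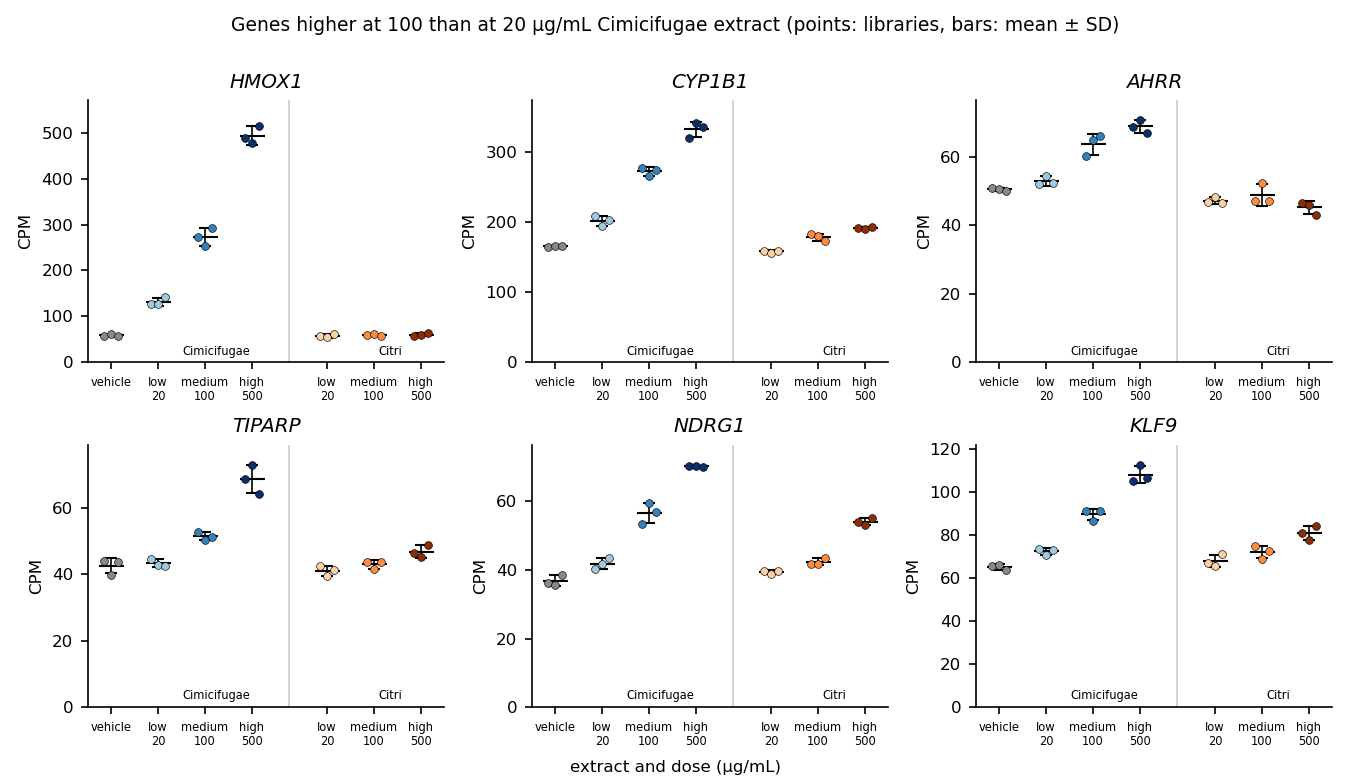
CPM in each library (points) with mean ± SD for 6 genes that rose, by extract and dose in µg/mL, with the vehicle at the left of each panel. The medium-dose Cimicifugae points lie above all low-dose points in each panel, and HMOX1 in Citri extract stays near the vehicle level of 59.0 CPM.

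The remaining genes that rose have varied roles. NDRG1 (8:133237171-133302022, minus strand), a gene induced by hypoxia, iron loss and other stresses, went from 40.3, 41.9 and 43.4 CPM to 53.5, 59.4 and 56.8 CPM. This is a log2 change of 0.43 ± 0.04 (adjusted p 1.40e-06). It was the only one of 17 hypoxia and glycolysis genes to pass. VEGFA, the vascular growth factor, missed the threshold at 0.19 ± 0.04 (adjusted p 0.055) and passed with the block (adjusted p 0.023). CA9, a carbonic anhydrase and a sensitive hypoxia marker, was at 43.5 CPM ± 1.67 (SD, n = 3) and 50.4 ± 4.43 (n = 3) and did not pass. The glycolytic enzymes PGK1, LDHA and ENO1 had log2 changes between -0.03 and 0.00.

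KLF9 (9:70384597-70414624, minus strand), a zinc finger transcription factor induced by glucocorticoids and by thyroid hormone, rose from 73.7, 70.5 and 73.0 CPM to 91.4, 86.5 and 91.0 CPM. The 2 groups were each within 5 CPM and lay more than 12 CPM apart, and the log2 change was 0.31 ± 0.04 (adjusted p 0.000854). KLF9 was the 1 of 10 tested glucocorticoid targets to pass. FKBP5 had 0.11 ± 0.08, TSC22D3 0.01 ± 0.06 and PER1 0.04 ± 0.06. ANGPTL4, a secreted inhibitor of lipoprotein lipase that stands in this list and in the PPAR list, passed only with the block (0.35 ± 0.08, adjusted p 0.033). DDIT4, an inhibitor of mTORC1, rose from 90.6, 89.6 and 89.3 CPM to 113, 107 and 102.5 CPM (0.26 ± 0.05, adjusted p 0.021).

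DDIT4 was 1 of 24 genes of the ATF4 stress response to pass. DDIT3, which encodes the stress factor CHOP, was at 24.3 CPM ± 1.60 (SD, n = 3) and 24.0 ± 0.752 (n = 3), a log2 change of -0.02 ± 0.07. ASNS and TRIB3, of asparagine synthesis and AKT inhibition, had 0.06 ± 0.04 and 0.06 ± 0.06. With the block the amino acid transporter SLC7A5 (0.18 ± 0.04, adjusted p 0.033) and the secreted glycoprotein STC2 (0.12 ± 0.03, adjusted p 0.045) also passed. None of the 16 ER chaperones passed with edgeR, beside 0.168% of all genes. GDF15, a stress cytokine, read 4.24, 4.77 and 4.68 CPM and then 5.00, 5.24 and 5.33 CPM. Its groups did not overlap, yet the log2 change of 0.19 ± 0.12 gave an edgeR adjusted p of 0.59.

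Of the rest that rose, SEL1L3 (0.37 ± 0.07, from 7.12 CPM ± 0.114 to 9.18 ± 0.446, SD, n = 3), ARHGAP44, a GTPase activating protein (0.36 ± 0.06), and the long non-coding RNA FENDRR (0.33 ± 0.07) were the larger. SNED1, an extracellular matrix protein, SASH1, a scaffold protein, GRAMD1B, which moves cholesterol from the plasma membrane, and TBX3, a T-box transcription factor, rose by 0.22 to 0.25. SEL1L3 and SNED1 overlap SMIM20 and MTERF4 on the other strand, which had 137% and 38.9% of their counts and log2 changes of 0.04 ± 0.10 and -0.03 ± 0.07. GRAMD1B and TBX3 fall outside the rule for named genes and were chosen after their values were seen. The step from medium to high passed for neither FENDRR nor SNED1 with edgeR: FENDRR was at 13.7 CPM ± 0.390 (SD, n = 3) at the medium and 12.9 ± 0.219 (n = 3) at the high dose, and SNED1 at 55.3 ± 2.38 and 52.6 ± 2.19 (n = 3 each). TXNIP, an arrestin-like brake on glucose uptake, read 14.9, 16.8 and 12.9 CPM and then 20.6, 20.2 and 17.5 CPM. Its adjusted p was 0.062 without the block and 0.023 with it, at a log2 change of 0.38 ± 0.08 in both fits. None of the other 7 tested genes of the MondoA and ChREBP list passed either way.

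Among the genes that fell, ANKRD1 (10:90912096-90921276, minus strand), an ankyrin repeat protein of stretched muscle and a YAP target, changed the most. It was at 10.1, 9.79 and 11.1 CPM at the low dose and 6.79, 6.53 and 8.21 CPM at the medium dose. This is a log2 change of -0.51 ± 0.09, a fall of 29.9%, with an adjusted p of 0.020. CCN1 (1:85580761-85583962, plus strand), a secreted matricellular protein, went from 204, 239.9 and 222 CPM to 169, 181 and 182 CPM, a change of -0.32 ± 0.06 (adjusted p 0.021). The highest medium-dose library was 22 CPM below the lowest low-dose library. CCN2, its relative with 3 GGAATG matches in the promoter above, read 78.1, 82.6 and 82.9 CPM and then 59.0, 68.6 and 67.8 CPM. It missed the threshold without the block (adjusted p 0.093) and passed with it (-0.32 ± 0.07, adjusted p 0.033).

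CCN1 was 1 of 22 genes of the extracellular matrix and TGF-beta list to pass. The matrix genes themselves had values near 0: COL1A1 had 0.05 ± 0.04, COL1A2 -0.04 ± 0.04, FN1 0.11 ± 0.03 and THBS1 0.00 ± 0.04, with no edgeR call among them. The list's median was 0.00. DDAH1, an enzyme that clears methylarginine inhibitors of nitric oxide synthase, is the neighbour of CCN1 on chromosome 1, on the opposite strand and 2397 bases away. It fell from 55.3 CPM ± 1.57 (SD, n = 3) to 47.0 ± 2.46 (n = 3) (-0.23 ± 0.04, adjusted p 0.011).

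KRT18 (12:52948871-52952901, plus strand), a keratin of simple epithelia, was at 185, 169 and 177 CPM and then 152, 144 and 140.3 CPM (-0.28 ± 0.04, adjusted p 0.000854). Its partner KRT8, which overlaps it on the other strand, had a change of -0.13 ± 0.05 and did not pass. KRT18 counts are uncertain because processed copies of the gene share its sequence. CNN3, an actin-binding calponin, and CTNNAL1, a relative of alpha-catenin, fell by 0.16 and 0.20 on the log2 scale (adjusted p 0.027 and 0.032). With the block, the actin gene ACTG1 (-0.16 ± 0.03, adjusted p 0.00859), the Arp2/3 subunit ACTR3 (-0.17 ± 0.03), the myosin light chain MYL12A (-0.20 ± 0.04), the caveolins CAV1 (-0.15 ± 0.03) and CAV2 (-0.20 ± 0.04) and the actin-folding chaperonin subunits CCT2, CCT4 and CCT5 (-0.15, -0.17 and -0.13) passed too. These block-only genes were chosen after their values were seen.

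DKK1 (10:52314296-52318042, plus strand), a secreted Wnt inhibitor, fell from 240.4, 234.5 and 250.6 CPM to 212, 183 and 215 CPM (-0.25 ± 0.05, adjusted p 0.021). It was 1 of 8 tested Wnt feedback genes to pass. AXIN2, the usual readout of beta-catenin activity, had -0.03 ± 0.08. PTX3, a secreted pattern recognition protein, went from 27.6, 26.9 and 29.8 CPM to 23.8, 23.3 and 21.4 CPM, the called gene nearest to the threshold (-0.30 ± 0.06, adjusted p 0.049). MEST, an imprinted gene, fell from 284, 274 and 286 CPM to 246, 226 and 239 CPM (-0.25 ± 0.03, adjusted p 0.000854). NT5DC3, PDE1C, a calmodulin-dependent phosphodiesterase, and the receptor TNFRSF19 fell by 0.27, 0.26 and 0.22. Vehicle levels were 330.3 CPM ± 3.30 (SD, n = 3) for DKK1, 40.4 ± 1.91 for PTX3 and 324 ± 10.7 for MEST (n = 3 each), above the low-dose levels in all 3. APEX1, the base excision repair endonuclease, and IMPDH2, of guanine nucleotide synthesis, fell by 0.17 and 0.15. CCN1 and APEX1 had mean vehicle levels below the low dose. CCN1 was at 210 CPM ± 9.46 in the vehicle and 222 ± 17.7 at the low dose (SD, n = 3 each). APEX1 was at 173 ± 2.4 and 184 ± 6.30 (n = 3 each). The other called genes that fell had mean vehicle levels above the low dose. MEST, CTNNAL1 and APEX1 overlap COPG2, ABITRAM and PIP4P1 on the other strand, with 27.7%, 16.3% and 17.9% of their counts, and none of these 3 passed with edgeR. CNN3 and IMPDH2 lie outside the rule for named genes and were chosen after their values were seen.

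**Figure D3:**
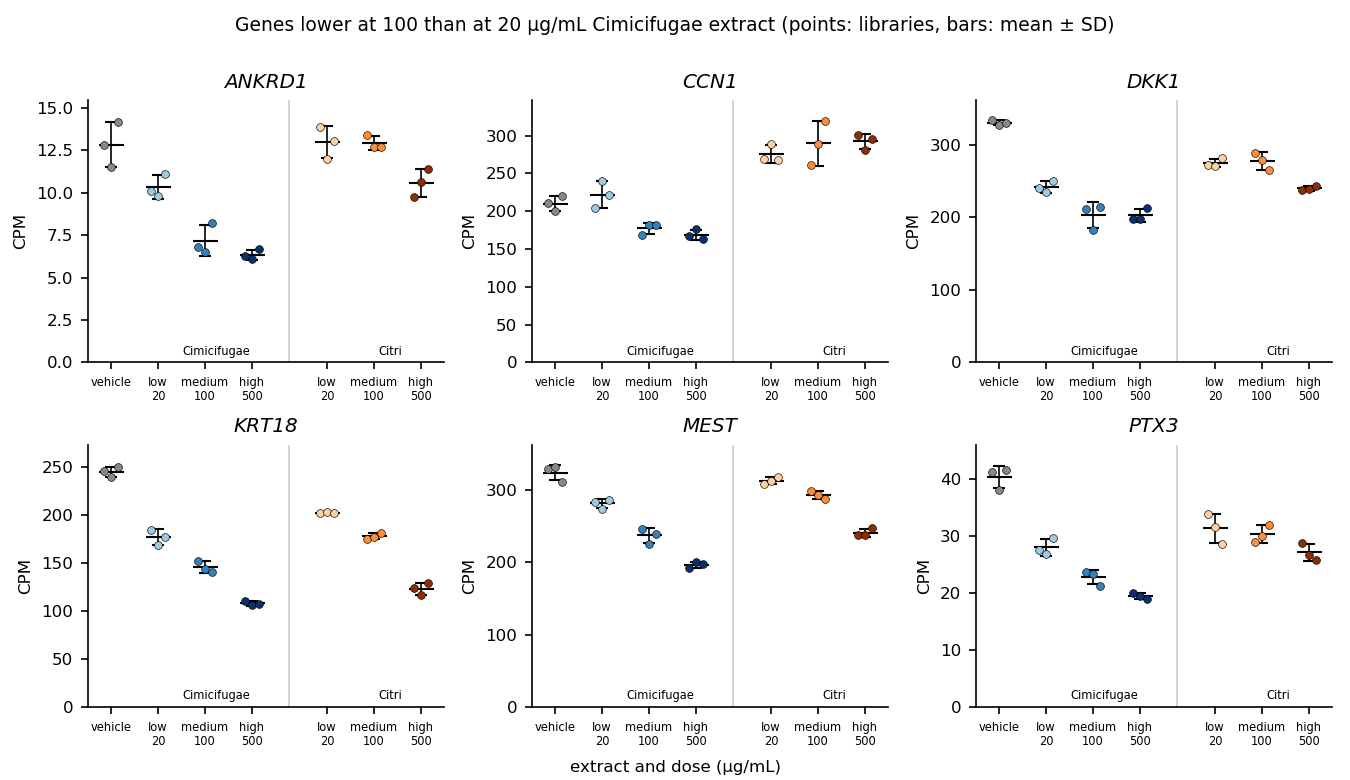
CPM in each library (points) with mean ± SD for 6 genes that fell, by extract and dose in µg/mL, with the vehicle at the left of each panel. The medium-dose Cimicifugae points lie below all low-dose points in each panel, and ANKRD1 goes from 10.3 CPM at the low dose to 7.18 at the medium dose, while in Citri extract the same 2 doses stand at 13.0 and 12.9 CPM.

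The values of these genes over the next step, which shares the medium-dose libraries, ranged widely. From the medium to the high dose TNFRSF19 fell by another 0.50 ± 0.05, KRT18 by 0.43 ± 0.04 and MEST by 0.27 ± 0.04 (edgeR, adjusted p 3.80e-07, 3.82e-07 and 3.71e-05). DKK1 had -0.01 ± 0.05, CCN1 -0.07 ± 0.06, IMPDH2 0.00 ± 0.03 and DDAH1 0.07 ± 0.04 over that step, none of which passed with edgeR. CCN1 was at 177 CPM ± 7.49 (SD, n = 3) at the medium and 169 ± 6.45 (n = 3) at the high dose, and DKK1 at 203 ± 17.6 and 203 ± 9.04 (n = 3 each). Over all genes that step had 565 calls, or 3.4%, with 270 higher and 295 lower.

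Of 37 gene lists, 8 had a called member and 29 had none, and with the block 13 had one. Several groups that are known to answer toxic or growth signals had no call with edgeR: 0 of 24 cholesterol genes (median -0.06), 0 of 16 p53 targets (-0.02), 0 of 18 mitotic genes (-0.04), 0 of 18 replication genes (-0.07), 0 of 14 cytokine and chemokine genes (0.00) and 0 of 16 interferon genes (0.03). Over all genes 0.168% passed, and at that share a list of this size would mostly hold no call. HMGCS1, a cholesterol synthesis enzyme, had a change of -0.11 ± 0.04. CDKN1A, the p53-driven cell cycle inhibitor, was at 30.1 CPM ± 1.02 (SD, n = 3) and 33.8 ± 1.13 (n = 3), a change of 0.17 ± 0.07 with an edgeR adjusted p of 0.34. MKI67, a proliferation marker, had 0.13 ± 0.07, IL6 0.16 ± 0.13 and the autophagy receptor SQSTM1 0.09 ± 0.04. Over all 16626 genes, 1740 had an unadjusted p under 0.05, more than that threshold alone would pass if no gene differed. All 13 mitochondrially encoded respiratory genes had values above 0, with a median of 0.07, and none passed with edgeR. Without low-dose replicate 1, the library with the low mitochondrial share, 3 of the 13 were above 0 and 10 below, with a median of -0.08.

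**Figure D4:**
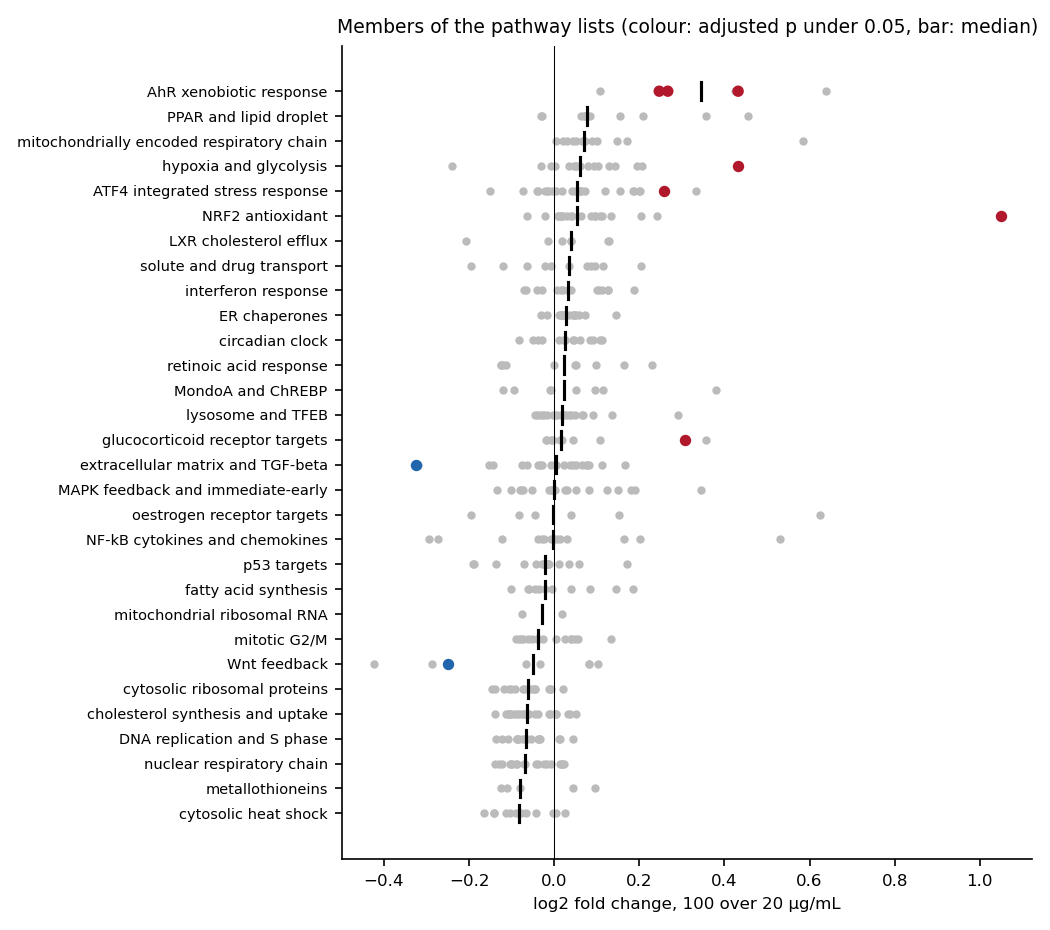
Each point is a tested gene of 1 pathway list, with its log2 fold change of the medium over the low dose on the x axis; red and blue points passed an adjusted p of 0.05 and black bars are list medians. The AhR list has the highest median, 0.35, with 3 called members, and the other medians lie between -0.08 and 0.08.

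The ethanol extract of mandarin peel, Citri Unshius Pericarpium, was given at the same 2 doses in the same set, and shares no library with the Cimicifugae comparison. It had 2 calls of 16626 (0.012%), the cytokine IL11 (0.37) and the homeodomain protein HOPX (-0.27), which were chosen after their values were seen. With the replicate block both also passed between the Cimicifugae doses, IL11 at 0.18 ± 0.04 (adjusted p 0.047, edgeR) and HOPX at -0.20 ± 0.04 (adjusted p 0.025). None of the 28 genes passed between the Citri doses with edgeR. The test of the difference between the 2 extracts' dose steps called 1 gene, HMOX1 (0.00601%). Without the block, an unadjusted p under 0.05 was found for 768 of the 16626 genes, fewer than that threshold alone would pass if no gene differed. With the replicate block it was found for 1062 of the 16626, more than that threshold alone would pass, and HMOX1 was again the 1 call. The count of small p-values therefore depends on the fit. HMOX1 was at 57.7 CPM ± 3.63 (SD, n = 3) and 59.9 ± 1.89 (n = 3) at the low and medium Citri doses, a log2 change of 0.05 ± 0.06 that did not pass, and the difference between the extracts was 1.00 ± 0.08 (adjusted p 1.21e-07).

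For the other 27 genes a difference between the extracts was not shown. NDRG1 and CYP1B1 came nearest, with differences of 0.32 ± 0.06 and 0.26 ± 0.05 and an edgeR adjusted p of 0.059 each. CYP1B1 was at 158 CPM ± 1.75 (SD, n = 3) and 179 ± 5.15 (n = 3) in the Citri groups, a change of 0.17 ± 0.03. CCN1 had 0.07 ± 0.06 with Citri and ANKRD1 0.00 ± 0.09, so that the differences were -0.40 ± 0.09 and -0.51 ± 0.13, with edgeR adjusted p of 0.29 and 0.77. At the other end DDIT4 had 0.23 ± 0.05 with Citri beside 0.26 ± 0.05 with Cimicifugae, and SASH1 had 0.18 ± 0.05 beside 0.25 ± 0.04. In all, 26 of the 28 had the same sign in both extracts, 92.9% beside 57.1% of all genes. This is a description with no test, and the libraries of the 2 extracts carry the same replicate numbers.

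**Figure D5:**
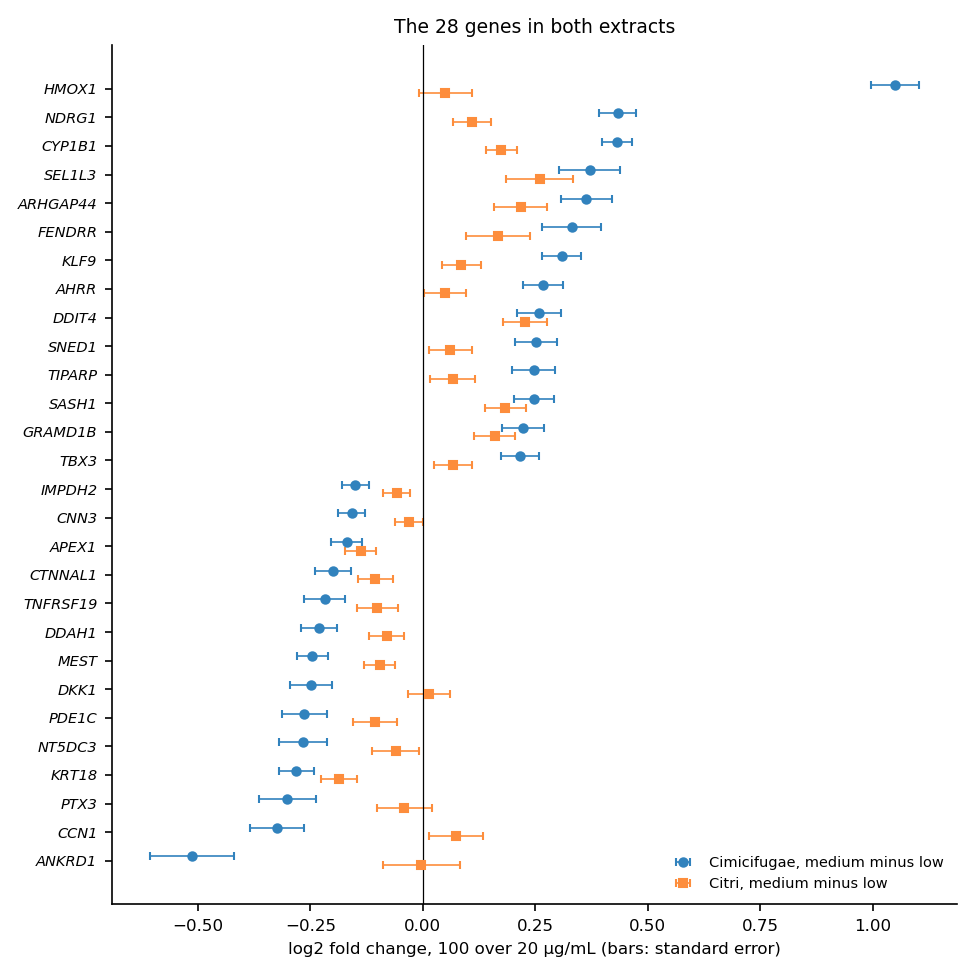
Log2 fold change of the medium over the low dose with its standard error for the 28 genes, in Cimicifugae extract (circles) and Citri extract (squares). HMOX1 is the widest gap, 1.05 against 0.05, and 26 of the 28 lie on the same side of 0 in both extracts.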

How the data were processed

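RNA was read as 100 bp paired-end mRNA libraries made with a directional kit, per the labels' protocols. The values are expected counts per gene as deposited by the authors in 1 table of 60 libraries. The submitters' processing notes name FastQC 0.11.9, Trim Galore 0.6.5, STAR 2.7.3a, RSEM 1.3.3 and the builds hg38 and GRCh38. Annotation, strand setting and tool roles: not given in the sources used here. Sample labels and series text differ on the DMSO concentration of the vehicle.

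Expected counts were rounded to whole numbers. Genes passing filterByExpr (minimum count 10) were scaled with TMM and fitted with edgeR 4.0.16 (R 4.3.3) in 1 quasi-likelihood model of group means over 21 libraries, of 15996140 to 30653459 counts: both extracts of set 12 at 3 doses and the vehicle. Standard errors are the log2 change divided by the root of the F statistic. P-values were adjusted by Benjamini-Hochberg over all 16626 genes. An earlier fit over 57 libraries was replaced because 2 libraries of other sets stand apart, and it is given as an alternative. Coordinates are those of GENCODE v29 (GRCh38), whose genes hold 99.97% of counts.

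Low and medium libraries with the same number deviated together (correlations 0.549, 0.177 and 0.36 over 10003 genes of at least 10 CPM; other numbers -0.418 to 0.081), so the numbers were taken to pair the samples and a fit with the number as a block is given where it changes a call.

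Named genes were the 12 largest rises and 12 largest falls among called genes (adjusted p under 0.05) whose groups did not overlap and whose mean reached 1 CPM, the 3 called members of smallest p in any list with 2 or more calls, and 12 genes given whatever their result: TXNIP, HMOX1, GDF15, CYP1A1, CYP1B1, HMGCS1, DDIT3, CDKN1A, MKI67, IL6, SQSTM1 and 1 that is not reported here. The comparison, the 37 gene lists and the tests were chosen with earlier results of these data known. Of the 28 called genes, 19 overlap another annotated gene, and 9 overlap one with 1% or more of their counts. The partners of SEL1L3, AHRR, SNED1, APEX1, CTNNAL1, DDAH1, MEST, KRT18 and PTX3 did not pass, and reads on the 2 strands cannot be told apart with the strand setting unknown. Alternatives were other size factors, DESeq2 1.42.0, other filters, other sets of libraries, the block and each library left out.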

Additional observations from a re-analysis of the deposited data

Results flagged for a closer look

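HMOX1 differed between the extracts by the test of the difference itself. Its change from the low to the medium dose was larger in Cimicifugae extract than in Citri extract by 0.999 ± 0.079 on the log2 scale (adjusted p 1.21e-07, edgeR). It was higher in 3 of 3 medium-dose Cimicifugae libraries than in every low-dose one, with within-pair log2 differences of 1.10, 0.99 and 1.05, while the Citri pairs gave 0.08, 0.18 and -0.09. The groups of 3 libraries are too small for a test of single outlying libraries.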

How the results depend on the processing

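The number of genes called between the medium and low dose was 28 and moved with the fit: 113 with DESeq2 (44 higher, 69 lower), 261 with no filter on low counts (145 higher, 116 lower), 3 with only the 6 libraries (HMOX1, NDRG1 and CYP1B1), 1 with 57 libraries, 70 with 55, 143 with the replicate block, and, in 2 fits added after seeing the data, 95 with the block over 18 libraries and 79 over the 6. It was 30 with DESeq2 size factors and 33 with a filter of 1 CPM. Leaving out 1 library gave 8 to 128. The step from medium to high dose had 565 calls, 307 with only its own groups, 16 with 57 libraries and 336 to 510 leaving out 1 library. The difference between the extracts had 1 call, 3 with DESeq2, 81 with no filter and 1 to 4 leaving out 1 library.

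None of the 28 changed sign in any alternative, and HMOX1 alone passed in all of them, with log2 changes of 1.00 to 1.10. DDIT3, which did not pass, turned from -0.02 to 0.022 without low-dose replicate 1 and to 0.0035 without medium-dose replicate 3, in a range of -0.06987 to 0.022 over the 6 libraries left out. The cause was not tested. The block changed no call of the other named genes than those given beside them.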

Other observations

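Among the 115 genes that passed only with the replicate block, 43 were higher and 72 lower at the medium dose. Higher genes included the imprinted long non-coding RNA MEG3 (0.29 ± 0.05, adjusted p 0.00859, edgeR with the block), thrombomodulin THBD (0.41 ± 0.09), the autophagy kinase ULK1 (0.21 ± 0.04) and the growth factor binding protein IGFBP3 (0.16 ± 0.03). Lower genes included the EGF-family ligands HBEGF (-0.27 ± 0.06) and NRG1 (-0.28 ± 0.07), the tight junction protein CLDN11 (-0.31 ± 0.07) and the transglutaminase TGM2 (-0.13 ± 0.03), of the retinoic acid list. These genes were chosen after their values were seen.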
